A study of Rattus norvegicus with 18 samples.

Results

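The immediate early genes described here are 10 rat genes: *Fos*, *Fosb*, *Jun*, *Junb*, *Jund*, *Egr1*, *Egr2*, *Nr4a1*, *Dusp1* and *Ier2*. They were taken by gene name from 3 tables of normalized read counts, each of which lists 32882 genes, and each name matched 1 row per table. The cells were CD4+ T-MBP cells, that is, rat T cells specific for myelin basic protein (MBP), which enter the spinal cord and cause disease after transfer into Lewis rats. Before transfer all cells had been restimulated with MBP and irradiated thymocytes, and all were isolated on day 3 after transfer. Controls were electroporated with a non-targeting (NT) guide and expressed BFP, while knockout (KO) cells received guides against *Ets1* or *Grk2* and expressed GFP, so that fluorescent colour and genotype cannot be told apart. There were 6 groups of 3 libraries: control and *Ets1*-KO cells from the spinal cord parenchyma, control and *Ets1*-KO cells from the spleen, and control and *Grk2*-KO cells from the spleen of another experiment. The age of the rats is not given in the labels. KO cells were sorted by their fluorescent protein, not by loss of the edited gene. The paper states that *Ets1*-KO and control cells of the parenchyma came from rats that had received both. The labels do not say that libraries of one number came from one animal, so that treating them as pairs is an assumption. The p-values cover only differences between these libraries. The spread behind a p-value was moderated towards a trend over all genes, and in the parenchyma it was taken from that trend alone.

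Immediate early genes are transcribed within minutes of a stimulus such as T cell receptor engagement, from factors already present in the cell, and their transcripts are short-lived. Fos and Jun proteins pair to form the AP-1 transcription factor, which works together with NFAT at cytokine genes. Egr proteins and Nr4a1 are transcription factors that report recent antigen receptor signalling in T cells, and Dusp1 is a phosphatase that switches mitogen-activated protein kinases off again.

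Between 898092 and 2248258 reads per library fell on genes. The spleen libraries labelled *Ets1*-KO were deeper (1909862 to 2248258 reads) than their controls (898092 to 1213485 reads), and the part of depth in the results of that table was not tested. A gene was tested in a table when its mean normalized count over the 6 libraries was at least 10, which 9 of the 10 members reached in the parenchyma and 8 in each spleen table. *Dusp1* fell below this minimum in the parenchyma, *Egr2* and *Nr4a1* in the spleen table of *Ets1*, and *Egr2* and *Dusp1* in the spleen table of *Grk2*. All 12 T cell markers of a fixed list had a mean of at least 10 in every group. Markers of B cells summed to between 2.62 and 13.1 normalized counts in all 18 libraries. Those of myeloid cells and microglia summed to between 33.9 and 65.9 in the parenchyma controls and between 55.6 and 83.9 in the *Ets1*-KO cells beside them, with *Lyz2* the largest part and *P2ry12*, *Mrc1*, *Cd163* and *Clec4f* at 0. In the spleen these sums were between 18.6 and 24.7 for the *Ets1* controls and between 18.7 and 20.5 for the *Ets1*-KO cells. In the *Grk2* experiment they were between 2.17 and 3.33 for the controls and between 4.55 and 9.61 for the *Grk2*-KO cells. The part of such cells in the results was not tested.

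The edited genes were looked at first. *Grk2* had normalized counts of 166, 166 and 142 in the control libraries (replicates 1, 2 and 3) and of 53.3, 64.2 and 87.3 in the *Grk2*-KO libraries. It fell by 1.22 on the log2 scale (SE 0.13, limma adjusted p = 1.76e-12), with no overlap. *Ets1* had a mean normalized count of 2400.2 ± 150.0 (SD, n = 3) in the parenchyma controls and of 2551 ± 183 in the libraries labelled *Ets1*-KO, and of 2077 ± 135 and 2000.1 ± 324 in the spleen. Its log2 fold changes of 0.087 (limma adjusted p = 0.56) and −0.064 (limma adjusted p = 0.854) do not check the label, because reads from the 3′ end do not show an edit elsewhere in the transcript. Directions for *Ets1*-KO therefore refer to the libraries labelled so. The paper states that its single KO lines were checked for editing efficiency by DNA sequencing before use.

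In the spleen, 4 of the 8 tested members rose in the libraries labelled *Ets1*-KO and none fell: *Fos*, *Fosb*, *Junb* and *Egr1*. Of all 6979 genes tested there, 2.22% were called, 1.02% higher and 1.2% lower. All 4 genes had every *Ets1*-KO library above every control, as did 8.04% of the tested genes, while 8.88% had every one below and 16.9% did not overlap in either direction. The median log2 fold change of the 8 members was 0.41, beside 0.00039 for all tested genes. Without the replicate block, *Fos* and *Fosb* were called and *Junb* and *Egr1* were not (limma adjusted p = 0.0719 and 0.124), and without replicate 1 none of the 4 was.

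*Fos* encodes the founding Fos subunit of AP-1 and lies at chr6:109300432-109303299 (Rnor_6.0). Its normalized counts were 278, 232 and 248 in the 3 spleen controls and 472, 438 and 468 in the 3 *Ets1*-KO libraries. Every *Ets1*-KO library lay above every control, and the 2 groups were far apart relative to their spread (253 ± 23.2 against 459.6 ± 18.4, mean ± SD, n = 3). On the log2 scale *Fos* rose by 0.86 (SE 0.12, limma adjusted p = 0.000166), which was the fourth smallest p of the table, and it was 0.76, 0.91 and 0.91 in the pairs of replicates 1, 2 and 3. The two-sided exact permutation test over the 20 labellings gave p = 0.1, the smallest it can give. Without replicate 1 the log2 fold change was 0.91 (limma adjusted p = 0.0587).

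*Fosb*, the close relative of *Fos* in AP-1 (chr1:80214493-80221710), had normalized counts of 219.9, 203 and 208 in the spleen controls and of 312, 306 and 391 in the *Ets1*-KO libraries. The controls were tightly grouped, all *Ets1*-KO libraries lay above them, and replicate 3 was the highest of these. It rose by 0.67 on the log2 scale (SE 0.12, limma adjusted p = 0.0039).

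Of the Jun subunits, which pair with Fos proteins or with each other, only *Junb* (chr19:26092973-26094756) was called in the spleen. Its normalized counts were 175, 175 and 118 in the controls and 265, 216 and 225 in the *Ets1*-KO libraries. The groups did not overlap, with control replicate 3 the lowest of all 6. It rose by 0.61 on the log2 scale (SE 0.14, limma adjusted p = 0.0172), and without replicate 3 it was no longer called. *Jun* itself had 439.7, 318 and 379 in the controls and 414, 375 and 413 in the *Ets1*-KO libraries, so that the groups overlapped. Its log2 fold change was 0.089, with a 95% interval from −0.15 to 0.33. *Jund*, which in many cells is expressed without a stimulus, had 1249, 1361 and 2131 in the controls and 1626, 1598 and 1596 in the *Ets1*-KO libraries. Control replicate 3 stood above all other libraries here, and this library was also the shallowest of the 18 (898092 reads). The log2 fold change of *Jund* was 0.065 with an interval from −0.20 to 0.33, and its sign turned when replicate 1 (−0.092) or replicate 2 (−0.019) was left out.

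*Egr1*, a zinc finger transcription factor (chr18:27657627-27661429), had normalized counts of 42.7, 51.6 and 90.9 in the spleen controls and of 93.1, 91.8 and 112 in the *Ets1*-KO libraries. The groups did not overlap, but control replicate 3 reached almost as high as the lowest *Ets1*-KO library. It rose by 0.74 on the log2 scale (SE 0.18, limma adjusted p = 0.0307), and it was 1.11, 0.82 and 0.30 in the pairs of replicates 1, 2 and 3. *Egr2*, its relative, rested on 2 reads in the 3 controls and 1 read in the 3 *Ets1*-KO libraries and was not tested. *Nr4a1*, which encodes an orphan nuclear receptor, was not tested either. It had normalized counts of 0, 5.38 and 1.57 in the controls (0, 5 and 1 reads) and of 5.48, 9.30 and 7.49 in the *Ets1*-KO libraries (8, 15 and 12 reads).

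The remaining members did not pass the test in the spleen. *Ier2*, a nuclear protein of the immediate early response that the annotation of the tables lists as a pseudogene, had 454, 485 and 369.8 normalized counts in the controls and 553, 529.6 and 428 in the *Ets1*-KO libraries. It was higher in each of the 3 pairs, the groups overlapped, and the log2 fold change was 0.21 (SE 0.11, limma adjusted p = 0.416). *Dusp1* had 10.9, 8.61 and 17.2 in the controls and 13.7, 14.3 and 6.24 in the *Ets1*-KO libraries. Its log2 fold change was −0.12 with an interval from −1.02 to 0.78, and it was 0.48 without replicate 3.

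The promoters of *Egr1*, *Egr2*, *Junb* and *Jund* are shown because *Egr1* and *Junb* rose in these cells, whereas their relatives *Egr2* and *Jund* were not tested or not called. The windows are the 250 bases before the start of each gene (RefSeq, GRCr8), 5′ to 3′ on the strand of the gene, and 8 of the 10 members had an entry, with none for *Fos* and *Jun*. They were searched on both strands for 5 motifs, and every match is in capitals: the CArG box (bound by serum response factor), TGACGTCA (the cyclic AMP response element), TGACTCA (the AP-1 site), CCGGAA (an extended form of the ETS core GGAA) and GCGNGGGCG (an Egr site). GGAA alone was not searched, and windows without CCGGAA, such as those of *Junb* and *Egr1*, can hold it. *Egr1* (chr18:26736828-26737077, plus strand) held 2 CArG boxes, which began 105 and 83 bases before the start. *Egr2* (chr20:21054442-21054691, minus strand) held 1 CArG box, 83 bases before the start, and 1 CCGGAA on the other strand.
Egr1: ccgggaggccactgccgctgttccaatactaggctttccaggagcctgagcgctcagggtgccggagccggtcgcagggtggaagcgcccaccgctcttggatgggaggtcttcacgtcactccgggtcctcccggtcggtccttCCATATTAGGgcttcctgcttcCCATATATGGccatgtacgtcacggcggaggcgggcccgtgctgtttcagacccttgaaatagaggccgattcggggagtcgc
Egr2: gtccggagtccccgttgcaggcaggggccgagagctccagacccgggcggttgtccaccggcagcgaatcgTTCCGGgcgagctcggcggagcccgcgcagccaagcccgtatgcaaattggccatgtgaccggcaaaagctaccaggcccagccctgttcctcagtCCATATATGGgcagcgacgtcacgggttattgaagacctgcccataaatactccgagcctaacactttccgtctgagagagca
The CArG box was found in these 2 of the 8 member windows and in 1.5% of all 33469 windows of this length. *Junb* (chr19:40080876-40081125, plus strand) held none of the 5 motifs. *Jund* (chr16:18769772-18770021, minus strand) held 1 TGACGTCA and 3 GCGNGGGCG matches.
Junb: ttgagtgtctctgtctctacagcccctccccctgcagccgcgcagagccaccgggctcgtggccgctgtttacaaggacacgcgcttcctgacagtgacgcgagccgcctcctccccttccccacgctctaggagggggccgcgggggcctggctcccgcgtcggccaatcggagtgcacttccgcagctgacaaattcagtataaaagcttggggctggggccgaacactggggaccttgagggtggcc
Jund: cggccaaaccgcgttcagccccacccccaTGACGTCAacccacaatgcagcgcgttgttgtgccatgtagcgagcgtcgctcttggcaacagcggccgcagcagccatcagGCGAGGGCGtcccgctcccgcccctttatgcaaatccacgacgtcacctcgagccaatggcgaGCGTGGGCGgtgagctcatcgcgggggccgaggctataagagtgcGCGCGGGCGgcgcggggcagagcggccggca
TGACGTCA was also found before *Dusp1* and *Ier2*, 3 of 8 member windows in all, and in 1.59% of all windows. CCGGAA was found before *Egr2*, *Nr4a1* and *Ier2*, and in 12.6% of all windows. GCGNGGGCG was found before *Jund* and *Nr4a1*, and in 4.29% of all windows. TGACTCA was in none of the 8 member windows and in 4.05% of all, and the window of *Fosb* held none of the 5 motifs. A match is a description of the letters and not of a bound site.

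**Figure D1:**
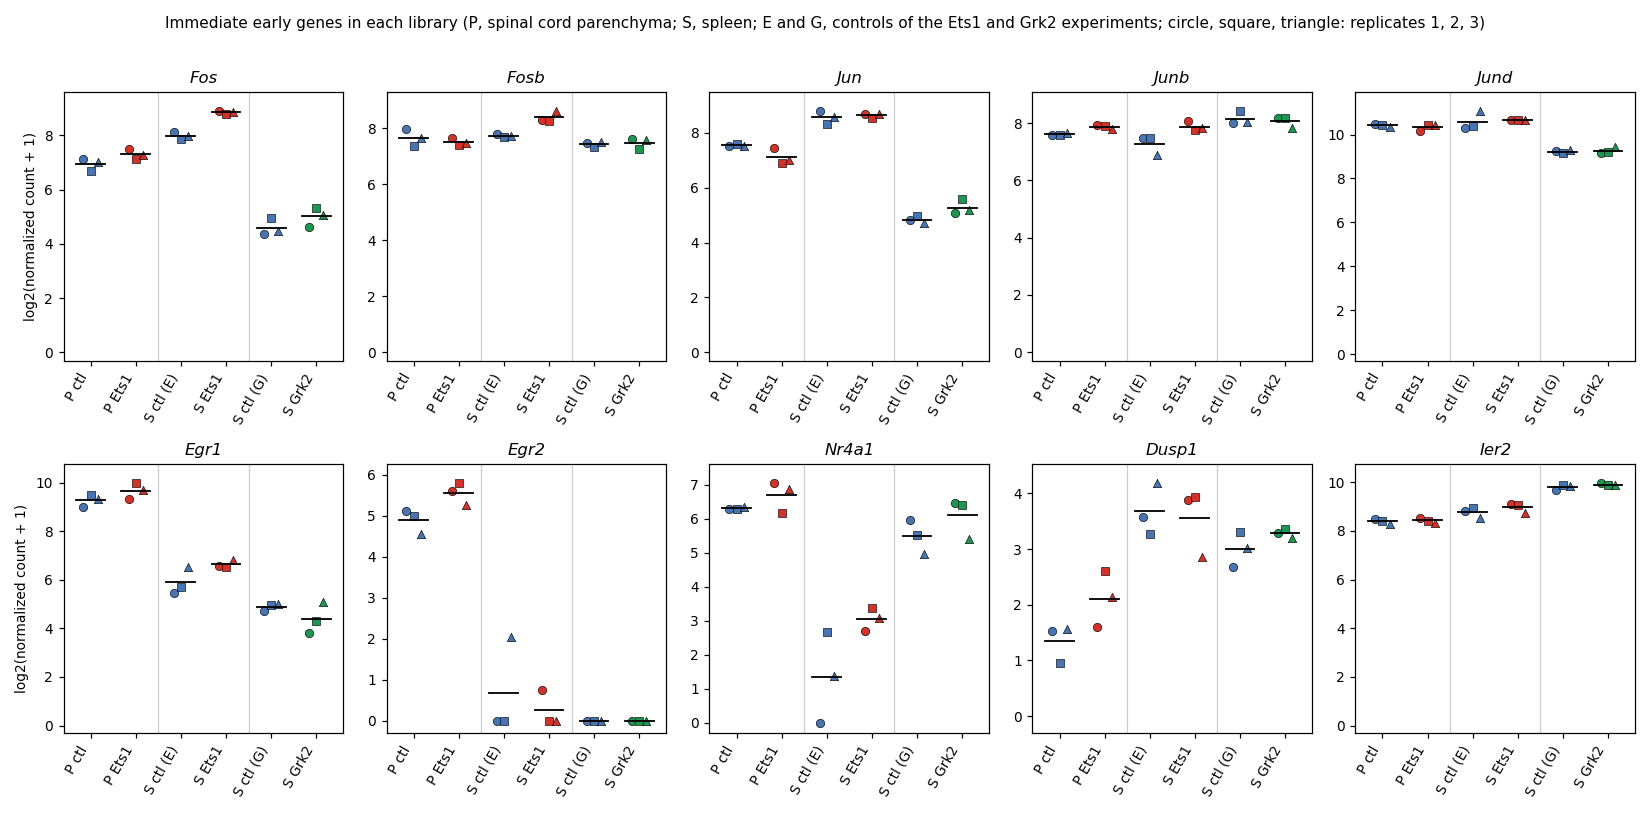
Normalized counts of the 10 members in every library, as log2(normalized count + 1), by group (P, spinal cord parenchyma; S, spleen; ctl, control; E and G, controls of the *Ets1* and *Grk2* experiments; blue, control; red, *Ets1*-KO; green, *Grk2*-KO). Circles, squares and triangles are replicates 1, 2 and 3, lines are means, and the 3 tables, split by grey lines, were normalized separately. *Fos*, *Fosb*, *Junb* and *Egr1* lie higher in all 3 spleen *Ets1*-KO libraries than in the 3 controls beside them, and *Egr2* is near 0 in the spleen.

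In the spinal cord parenchyma, *Egr1* rose and *Jun* fell among the 9 tested members. Of the 7002 genes tested there, 5.23% were called, 2.27% higher and 2.96% lower. The median log2 fold change of the 9 members was 0.26, beside −0.029 for all tested genes. *Egr1* had normalized counts of 506, 714 and 641 in the controls and of 641, 995 and 832 in the *Ets1*-KO libraries. The 2 groups overlapped because replicate 1 was the lowest of both, yet *Egr1* was higher in each of the 3 pairs, by 0.34, 0.48 and 0.38 on the log2 scale. The fitted log2 fold change was 0.40 (SE 0.081, limma adjusted p = 8.84e-05). It was called without the replicate block as well (limma adjusted p = 0.0444), and without replicate 2 it was not called. *Jun* had 184, 193 and 179.9 in the controls and 171, 118 and 128 in the *Ets1*-KO libraries. All *Ets1*-KO libraries lay below the controls, replicate 1 only just. It fell by 0.43 on the log2 scale (SE 0.12, limma adjusted p = 0.0122). The call was lost without the replicate block (limma adjusted p = 0.0765) and without replicate 2 or 3.

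Of the other members in the parenchyma, *Junb* and *Egr2* had all *Ets1*-KO libraries above all controls without passing the test. With *Jun* they made 3 of 9 members whose groups did not overlap, beside 18.4% of all genes tested, 7.87% higher and 10.5% lower. *Egr2* had 33.6, 31.0 and 22.6 normalized counts in the controls and 47.5, 54.6 and 37.4 in the *Ets1*-KO libraries. Its log2 fold change of 0.66 (SE 0.23, limma adjusted p = 0.062) was the largest among the members there, and edgeR's quasi-likelihood test on the recovered reads called it (adjusted p = 0.0477). *Junb* had 189, 192 and 201 in the controls and 244, 236 and 219.9 in the *Ets1*-KO libraries (log2 fold change 0.26, limma adjusted p = 0.16). *Fos* had 139, 103 and 129 in the controls and 179.9, 137 and 153 in the *Ets1*-KO libraries. It was higher in each pair while the groups overlapped (log2 fold change 0.35, SE 0.13, limma adjusted p = 0.0953). *Nr4a1* had 77.5, 78.1 and 80.6 in the controls and 131, 71.8 and 117 in the *Ets1*-KO libraries. The controls were almost equal, replicate 2 of the *Ets1*-KO libraries lay below them and the other two above. Its log2 fold change was 0.39 (limma adjusted p = 0.122), and it was 0.64 without replicate 2 (limma adjusted p = 0.0281) and 0.20 without replicate 1 (limma adjusted p = 0.721). *Fosb* (−0.15), *Jund* (−0.10) and *Ier2* (0.034) had small log2 fold changes whose intervals included 0. *Dusp1*, with between 1 and 5 reads per library, was not tested.

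None of the 8 tested members was called in the *Grk2*-KO cells by limma, where 1.56% of the 6985 tested genes were (0.931% higher and 0.63% lower), and edgeR and DESeq2 also called none. 1 of the 8 members, *Nr4a1*, had an unadjusted limma p under 0.05, as did 728 of all 6985 tested genes. *Nr4a1* had normalized counts of 61.8, 45.4 and 30.4 in the controls and of 88.2, 83.9 and 41.8 in the *Grk2*-KO libraries. Replicate 3 was the lowest of both groups, so that they overlapped, and every pair was higher in the *Grk2*-KO library. Its log2 fold change was 0.61 (SE 0.18, limma adjusted p = 0.0501), just beside the threshold, and with a pseudocount of 0.1 or 5 in place of 1 the adjusted p was 0.0494 and 0.0489. *Jun* had 27.1, 29.9 and 25.3 in the controls and 32.3, 46.6 and 35.5 in the *Grk2*-KO libraries. It was the 1 tested member whose groups did not overlap, beside 12.2% of all genes tested (7.59% higher and 4.62% lower), and its log2 fold change was 0.45 (SE 0.23, limma adjusted p = 0.493). *Fos* had 19.5, 29.9 and 21.2 in the controls and 23.6, 39.3 and 32.7 in the *Grk2*-KO libraries, with an interval of the log2 fold change from −0.080 to 0.91. *Egr1* had 24.9, 29.9 and 31.4 in the controls and 13.1, 18.6 and 32.7 in the *Grk2*-KO libraries, with an interval from −1.02 to 0.034. These 3 genes rested on between 15 and 45 reads per library, so that changes of the size seen for *Fos* in the *Ets1* table lay within the interval for *Fos* here. *Fosb*, *Junb*, *Jund* and *Ier2*, which had more reads, had log2 fold changes of 0.040, −0.085, 0.039 and 0.10, and the widest of their intervals, that of *Fosb*, ran from −0.17 to 0.25.

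**Figure D2:**
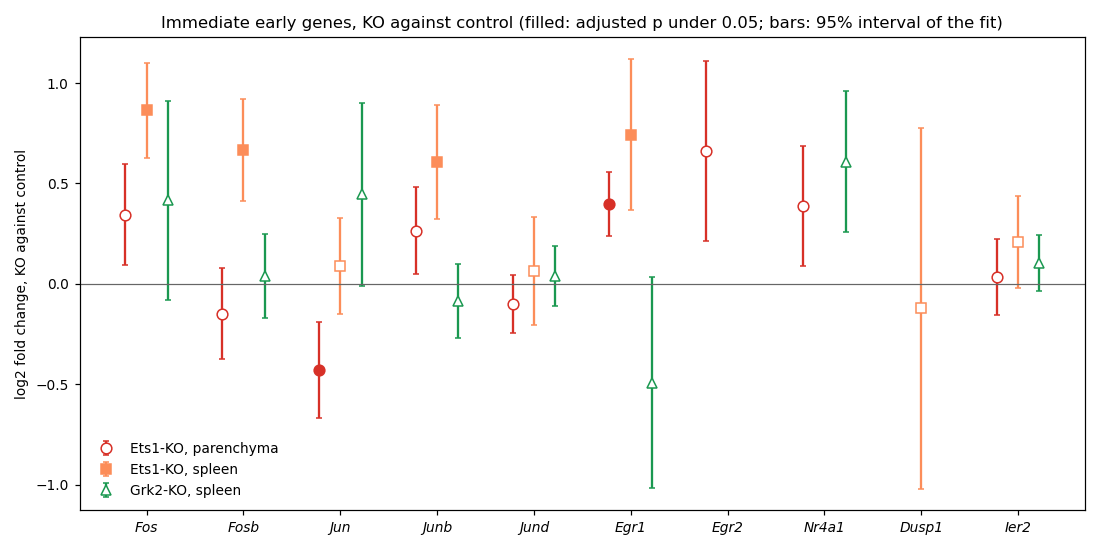
Log2 fold changes of the members, KO against control, in the 3 comparisons (y axis), with 95% intervals of the limma fit (bars). Filled symbols passed an adjusted p of 0.05, and members below the count minimum of a table have no symbol there. The 4 filled squares of *Ets1*-KO cells from the spleen lie between 0.61 and 0.86, whereas the filled circles of the parenchyma are 0.40 for *Egr1* and −0.43 for *Jun*.

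Whether the *Ets1* effect differed between tissues was tested on the log2 ratio of each pair, for the 7 members that passed the minimum in both tables, among 6520 genes of which 2.1% were called, 0.675% higher and 1.43% lower. *Fosb* was the 1 member called. Its pair ratios were −0.32, 0.020 and −0.15 in the parenchyma and 0.50, 0.59 and 0.90 in the spleen. The difference, parenchyma minus spleen, was −0.81 on the log2 scale (SE 0.17, limma adjusted p = 0.00408), and it was not called without replicate 1 or without replicate 3. *Fos* had pair ratios of 0.37, 0.42 and 0.25 in the parenchyma and of 0.76, 0.91 and 0.91 in the spleen, a difference of −0.52 (SE 0.16, limma adjusted p = 0.0866). *Jun* had a difference of −0.52 (SE 0.17, limma adjusted p = 0.101), which ranged from −0.77 to −0.31 when replicates were left out in turn. For *Egr1*, which was called in both tissues, the difference was −0.35 with an interval from −0.70 to 0.010, and it ranged from −0.55 to −0.13 when replicates were left out in turn. Tissue cannot be told apart here from the isolation procedure, a Percoll gradient for the spinal cord and erythrocyte lysis with negative selection for the spleen.

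In the spleen, the effects of *Ets1* and *Grk2* editing were compared in the same way over 6490 genes, of which 1.94% were called, 0.724% higher and 1.22% lower. *Fosb*, *Junb* and *Egr1* were called among the 7 members tested, all with the larger ratio in the *Ets1* experiment. For *Fosb* the *Ets1* minus *Grk2* difference was 0.63 (SE 0.16, limma adjusted p = 0.0295), from pair ratios between 0.50 and 0.90 against −0.088 to 0.15. For *Junb* it was 0.69 (SE 0.17, limma adjusted p = 0.0217), from ratios of 0.60, 0.30 and 0.93 against 0.16, −0.23 and −0.19. For *Egr1* it was 1.23 (SE 0.32, limma adjusted p = 0.0287), from ratios of 1.11, 0.82 and 0.30 against −0.88, −0.66 and 0.060. The ratios of the 2 experiments did not overlap for any of the 3 genes. These genes were called on the same ratios, and the share of all genes without such overlap was not counted. All 3 calls were lost without the replicate block (limma adjusted p between 0.117 and 0.169), and between 0 and 1 of them was left when a replicate was left out. For *Fos* the difference was 0.45 with an interval from 0.032 to 0.87 (limma adjusted p = 0.336). Here the edited gene and the experiment cannot be told apart.

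**Figure D3:**
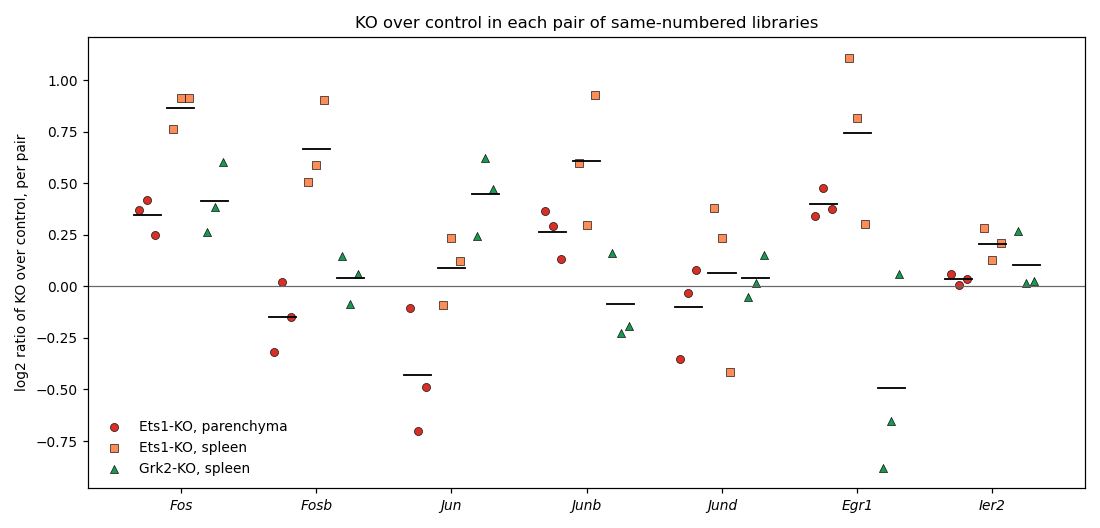
Log2 ratio of KO over control in each pair of same-numbered libraries (y axis) for the 7 members tested in all 3 tables (circles, *Ets1*-KO in the parenchyma; squares, *Ets1*-KO in the spleen; triangles, *Grk2*-KO in the spleen; lines, means). For *Fosb* the 3 squares, at 0.50 or above, lie apart from all circles and triangles.

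The control cells were then compared between tissues and experiments in RPM, that is, as recovered reads of a gene scaled to a common total of reads on genes per library. The tables were normalized separately and no test was made across them. Mitochondrial genes took between 25.4% and 27.4% of the reads in the parenchyma controls, between 17.3% and 18.6% in the spleen controls of *Ets1* and between 22.3% and 22.6% in those of *Grk2*. *Egr1*, *Egr2* and *Nr4a1* were higher in all 3 parenchyma controls than in all 6 spleen controls, and *Dusp1* and *Ier2* were lower. With mitochondrial genes left out of the total, *Ier2* overlapped and the other 4 did not. The other 5 members overlapped with the range of the spleen controls or lay inside it. Among the 7 members that passed the minimum in all 3 tables, *Egr1* and *Ier2*, 2 of 7, lay outside the range of all spleen controls, beside 24% of the 6207 genes that passed it (9.54% above and 14.5% below). The other 3, *Egr2*, *Nr4a1* and *Dusp1*, missed the minimum in at least 1 table. Between pairs of control groups, counting the members that passed in both tables, the ranges of 4 of 7 did not overlap for parenchyma against spleen controls of *Ets1* (46.8% of all genes passing in both), those of 7 of 8 for parenchyma against spleen controls of *Grk2* (61.8%), and those of 7 of 7 for the 2 sets of spleen controls (59.5%). Means differed at least 2-fold for 3, 5 and 5 of these members, against 14.3%, 22.6% and 23.9% of all genes. They differed at least 10-fold for 0, 1 (*Egr1*) and 2 (*Fos* and *Jun*), against 0.383%, 0.172% and 0.169%.

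*Egr1* had 362, 491 and 454 RPM in the parenchyma controls, 32.1, 40.0 and 64.6 in the spleen controls of *Ets1*, and 19.5, 23.1 and 23.6 in those of *Grk2*. Its mean in the parenchyma was 9.56 and 19.7 times that of the 2 spleen groups, and each of the 3 ranges stood apart. *Egr2* had 24.1, 21.3 and 16.0 RPM in the parenchyma controls (36, 33 and 23 reads). In the spleen it rested on 2 reads, both in 1 library, in the controls of *Ets1* and on 0 reads in those of *Grk2*. That is 34.0 times the pooled level in the former (exact Clopper-Pearson 95% interval from 9.15 to 285, counting error only) and at least 25.0-fold higher than the latter, taking 3 reads over the group as the floor. In bulk RNA, fewer cells that carry a transcript and less transcript per cell cannot be told apart.

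*Nr4a1* had 55.5, 53.7 and 57.1 RPM in the parenchyma controls. In the spleen the 2 experiments differed. The controls of *Grk2* had 48.3, 35.1 and 22.8, below the parenchyma by a factor of 1.56 in the mean. The controls of *Ets1* had 0, 4.16 and 1.11, which rested on 6 reads in all (0, 5 and 1) against 128 reads in the *Grk2* experiment. *Fos* and *Jun* went the other way. *Fos* had 209, 179.8 and 176 RPM in the spleen controls of *Ets1* and 15.3, 23.1 and 16.0 in those of *Grk2*, with the parenchyma controls (99.6, 70.5 and 91.2) in between. *Jun* had 331, 246 and 269 in the former, 21.2, 23.1 and 19.0 in the latter, and 132, 133 and 127 in the parenchyma. Between the 2 sets of spleen controls the means of *Fos* and *Jun* thus differed 10.4-fold and 13.4-fold, in cells that carried the same kind of control guide and came from the same organ on day 3 after transfer. The labels do not say whether both sets were isolated together, so that experiment and any difference in handling cannot be told apart.

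The means of the remaining members differed less between the control groups. Their largest difference was 8.04-fold, for *Dusp1*, lower in the parenchyma than in the spleen controls of *Ets1*, on 5 and 29 reads. *Fosb* had a mean of 144 ± 32.5 RPM (SD, n = 3) in the parenchyma, of 157 ± 8.78 in the spleen controls of *Ets1* and of 133 ± 7.28 in those of *Grk2*. The parenchyma range overlapped with both spleen ranges, and the order of the 3 means turned under other settings. *Jund* was at 976 ± 54.1, 1170 ± 304 and 459.7 ± 12.7, with overlap of the first 2 groups and with the *Grk2* controls lowest. *Junb* was at 136 ± 5.12, 117 ± 29.1 and 219.8 ± 37.4, again with overlap of the first 2 and with the *Grk2* controls highest. *Ier2* was lowest in the parenchyma, at 237 ± 17.1, then 327 ± 57.9 and 687 ± 41.8, without overlap. *Dusp1* was low throughout, at 1.13 ± 0.415, 9.05 ± 2.88 and 5.47 ± 1.31, with overlap of the 2 spleen groups.

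**Figure D4:**
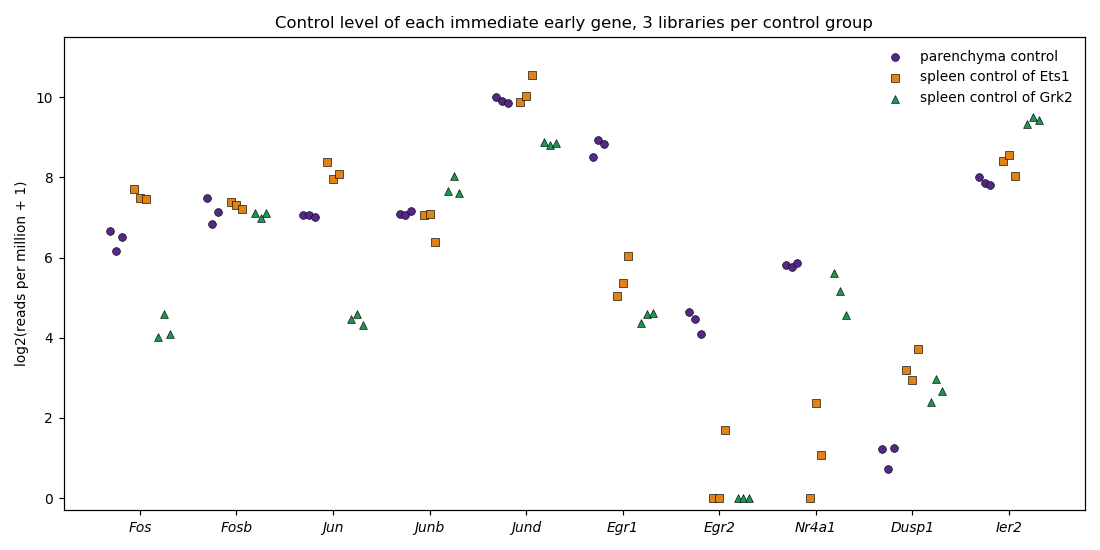
RPM of each member in the 9 control libraries, as log2(RPM + 1) (circles, parenchyma; squares, spleen controls of *Ets1*; triangles, spleen controls of *Grk2*). *Egr1* and *Egr2* are highest in the parenchyma, while *Fos* and *Jun* differ more than 10-fold in the mean between the 2 sets of spleen controls.

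Other genes of the same response were described by fixed lists. Of 46 further immediate early genes, 26 were tested in the parenchyma, where 4 rose and none fell in the *Ets1*-KO cells (median log2 fold change 0.081). These were *Nr4a2*, a relative of *Nr4a1* (132 ± 21.1 against 206 ± 32.1 normalized counts, log2 fold change 0.63, limma adjusted p = 1.74e-05), *Nfil3*, a basic leucine zipper factor (0.60, limma adjusted p = 4.48e-05), *Rgs2*, a regulator of G protein signalling (0.35, limma adjusted p = 0.0132), and *Dusp2*, a phosphatase of mitogen-activated protein kinases (0.23, limma adjusted p = 0.0477). In the spleen *Ets1* table none of 23 tested was called (median 0.063), and the log2 fold changes of these 4 genes lay between −0.18 and 0.09. In the *Grk2* table none of 25 tested was called.

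Among 14 partners and corepressors of AP-1, *Batf*, which pairs with Jun proteins, rose in the parenchyma *Ets1*-KO cells (168 ± 16.1 against 231 ± 28.1 normalized counts, log2 fold change 0.46, limma adjusted p = 0.00269). *Batf3* had 4.47 ± 1.56 against 16.0 ± 2.30 normalized counts. It reached the minimum only through the *Ets1*-KO libraries, so that its call there (limma adjusted p = 0.00549) is not counted as a result. In the spleen *Ets1* table *Maf*, another basic leucine zipper factor, rose (109 ± 9.40 against 163 ± 29.1, log2 fold change 0.57, limma adjusted p = 0.0422), 1 of 11 tested. Of 35 upstream kinases and promoter factors, *Rps6ka1*, which encodes a kinase downstream of ERK, fell by 0.37 on the log2 scale in the parenchyma (limma adjusted p = 0.0214), 1 of 28 tested. None of 25 tested was called in either spleen table.

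Of 18 activation products of T cells, 3 rose and 3 fell among 12 tested in the parenchyma *Ets1*-KO cells. The p-values of the parenchyma rest on the trend over all genes and not on the spread of a gene's own libraries. *Tnfrsf9*, a costimulatory receptor induced by activation, rose from 210.2 ± 29.7 to 771 ± 95.1 normalized counts (log2 fold change 1.87, limma adjusted p = 6.60e-86), and *Il2ra*, a chain of the interleukin-2 receptor, had a log2 fold change of 0.62 (limma adjusted p = 1.89e-12). *Icos* had one of 0.20 (limma adjusted p = 0.0421). *Mki67*, a marker of dividing cells, fell by 1.15 on the log2 scale (limma adjusted p = 1.01e-15), *Cd44*, an adhesion receptor, fell by 0.59 (limma adjusted p = 0.000484), and *Tnfrsf4*, another costimulatory receptor, fell by 0.50 (limma adjusted p = 0.00403). In the spleen *Ets1* table, where *Fos*, *Fosb*, *Junb* and *Egr1* rose, *Mki67* was the 1 of 9 tested that was called, and it fell by 0.67 (limma adjusted p = 0.00208). In the *Grk2*-KO cells *Cd44* rose by 0.42 (limma adjusted p = 0.000408) and *Il2ra* fell by 0.42 (limma adjusted p = 0.00512), 2 of 10 tested. Of 18 heat shock and stress genes, which can be induced along with immediate early genes during cell isolation, *Ddit4* alone was called, in the spleen *Ets1* table (248 ± 70.1 against 343 ± 67.7 normalized counts, log2 fold change 0.49, limma adjusted p = 0.0439). Of 13 tested there, 10 had a log2 fold change above 0 (median 0.21), beside 3495 of all 6979 tested genes (median 0.00039). In the parenchyma, 10 of 12 tested were above 0 (median 0.12), beside 3181 of all 7002 (median −0.029). For the *Grk2*-KO cells, 8 of 12 tested were above 0 (median 0.038), beside 3770 of all 6985 (median 0.018). The part of isolation in these values was not tested. The summed level of the listed stress genes lay between 10324 and 14361 normalized counts in the spleen controls of *Ets1* and between 12098 and 13674 in the *Ets1*-KO cells. In the parenchyma it lay between 9847 and 10370 in the controls and between 10163 and 10762 in the *Ets1*-KO cells. In the *Grk2* experiment the sums were between 6588 and 7078 and between 6648 and 6755. Among the marker lists of other cells, *Nefl*, a neurofilament gene on the list for spinal cord tissue, was the 1 gene called, and it rose in the spleen *Ets1*-KO cells (means of 36.4 and 88.6 normalized counts, limma adjusted p = 0.00328), while 8 of the 12 genes on that list, *Gfap* and *Mog* among them, were at 0 in all 6 libraries. None of the tested genes on the lists for T cells (12 tested in each table), CD8 and NK cells (2 in each) and myeloid cells (1, 1 and 0) was called, and no gene on the lists for B cells, granulocytes and erythroid cells reached the minimum.

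The members did not share a single profile. Over the 18 libraries, with each gene centred on the 6 libraries of its table, *Fos* was the gene most like the mean of the 7 members that passed in all tables (Pearson r = 0.89, Spearman rho = 0.93). That mean includes each of these 7 members, which raises their own r but not that of other genes. *Fos* was followed among the members by *Fosb* (r = 0.71), *Junb* (0.62), *Egr1* (0.59), *Ier2* (0.42), *Jun* (0.25) and *Jund* (0.21). In this order they ranked 48, 122, 158, 620, 1451 and 1671 among 6207 genes. Within the spleen *Ets1* libraries alone, *Fos*, *Fosb*, *Junb* and *Egr1* had r of 0.98, 0.95, 0.76 and 0.82. These were 0.93, 0.43, 0.67 and −0.15 within the parenchyma, and 0.88, −0.37, 0.0044 and 0.43 within the *Grk2* experiment. For *Ier2*, *Jun* and *Jund* the ranges were 0.26 to 0.41, −0.62 to 0.73 and 0.41 to 0.58, respectively. Among the genes that are no members, *Snrnp48* (0.88), AC109737.1 (0.86), *Ccdc90b* (0.85), *Pfdn5* (0.83) and *Ttc39c* (0.83) came closest of 6207. Within the spleen *Ets1* table alone these 5 had r between 0.91 and 0.98, and within the parenchyma between 0.096 and 0.57. These correlations are descriptions over libraries that share their table, and in the spleen *Ets1* table all *Ets1*-KO libraries were deeper than the controls.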

How the data were processed

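Reads of a 3′ mRNA kit were aligned by the authors with STAR 2.7.2b to Rnor_6.0, counted per gene with HTSeq-count 1.0.0 and divided by size factors of DESeq2 (poscounts). The signal values as deposited are these normalized read counts, in 3 tables of 6 libraries. For every library 100% of the low values checked were whole multiples of 1 step (tolerance 0.01), from which reads were recovered. Tables of the authors' own comparisons, pathway lists and human values were not used.

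Where the normalized counts of a gene averaged 10 or more across a table, the gene was tested as log2(normalized count + 1), a scale that understates changes of low genes, with limma 3.58.1 (R 4.3.3; lmFit, eBayes with a trend, replicate number as a block). Tests were two-sided, with a Benjamini-Hochberg adjusted p under 0.05 over all tested genes as the threshold. Differences between effects were tested with limma on the log2 ratios of the pairs. Single genes had exact permutation tests over 20 labellings of 3 against 3, whose smallest p is 0.1. Alternatives included edgeR 4.0.16 and DESeq2 1.42.0 on recovered reads. The scripts were tested on simulated data. The block follows the methods, which corrected per animal where applicable.

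All 10 members were named, together with the edited genes. Of each other list, up to 8 genes called in at least 1 KO comparison were named by smallest adjusted p, and also the 5 genes most like the members' mean profile. *Lyz2*, *P2ry12*, *Mrc1*, *Cd163*, *Clec4f*, *Gfap* and *Mog* were named after their values were seen. The members and lists were chosen with earlier results of these data known. Promoter windows came from RefSeq (GRCr8).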

Additional observations from a re-analysis of the deposited data

Results flagged for a closer look

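4 results were picked out because the effect of editing differed between 2 comparisons by a test of the difference itself. The *Ets1*-KO effect on *Fosb* was lower in the parenchyma than in the spleen, with a difference of −0.81 on the log2 scale (limma adjusted p = 0.00408). In the spleen, the *Ets1*-KO effect exceeded the *Grk2*-KO effect by 0.63 for *Fosb* (limma adjusted p = 0.0295), by 0.69 for *Junb* (limma adjusted p = 0.0217) and by 1.23 for *Egr1* (limma adjusted p = 0.0287). Groups of 3 libraries were not searched for single outlying libraries.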

How the results depend on the processing

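The number of members called was 2 in the parenchyma, 4 in the spleen *Ets1* table, 0 in the *Grk2* table, 1 for the tissue difference and 3 for the difference between *Ets1* and *Grk2*. With eBayes without a trend it was 0 in each, and over all genes between 0 and 3 were then called. Without the replicate block it was 1 in the parenchyma, 2 in the spleen *Ets1* table and 0 for the *Ets1* and *Grk2* difference, and the block changed no other member count. Same-numbered libraries correlated between −0.0030 and 0.18, above 0.1 in 5 of 9 pairs, and 7 of the 9 correlated best with their own number. Whether libraries of one number came from one animal was not tested. Leaving out replicates in turn gave between 1 and 2 members in the parenchyma, between 0 and 4 in the spleen *Ets1* table, between 0 and 1 for the tissue difference and between 0 and 1 for the *Ets1* and *Grk2* difference. In the parenchyma the number was also 1 with no filter, with quantile normalization and with DESeq2. In the *Grk2* table it was 1 with a pseudocount of 0.1 or of 5, and for the *Ets1* and *Grk2* difference it was 0 with DESeq2, which left *Egr1* of the spleen *Ets1* table without an adjusted p. The cause of these changes was not tested. Signs of member values turned only when a replicate was left out, except for *Fosb* control levels. Leaving out replicates in turn, the log2 fold change of *Jund* ranged from −0.19 to 0.023 in the parenchyma, from −0.092 to 0.31 in the spleen *Ets1* table, from −0.018 to 0.083 in the *Grk2* table, from −0.50 to 0.12 for the tissue difference and from −0.18 to 0.32 for the *Ets1* and *Grk2* difference. That of *Dusp1* ranged from −0.52 to 0.48 in the spleen *Ets1* table and that of *Fosb* from −0.014 to 0.10 in the *Grk2* table. Log2 ratios of control levels, parenchyma over spleen controls of *Ets1*, ranged from −0.26 to 0.024 for *Fosb*, from −0.0031 to 0.36 for *Junb* and from −0.44 to 0.0040 for *Jund*, and over the *Grk2* controls from −0.046 to 0.21 for *Fosb*. With mitochondrial genes left out of the total, the first of these *Fosb* ratios was 0.034. The genes called over all tested were 366 in the parenchyma (86 by DESeq2, 200 without the block), 155 in the spleen *Ets1* table (58 by DESeq2, 71 without the block, 3 without replicate 1, 242 with no filter) and 109 in the *Grk2* table (13 by DESeq2, 19 without the block). Of these, 43.4%, 45.8% and 59.6% were higher, against 53.6%, 58.3% and 52.1% with TMM scaling and 52.7%, 53.7% and 44.7% with upper quartile scaling. In the parenchyma fit the prior degrees of freedom were infinite, so that p-values there used the trend over all genes and not the spread of the gene's own 3 pairs. Low read numbers limit *Egr2*, *Nr4a1* and *Dusp1* in the spleen, where a library held at most 23 reads outside *Nr4a1* in the *Grk2* table.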
